A study of Homo sapiens with 9 samples.

Results

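The genes described here are 33 genes of HLA antigen presentation, chosen by symbol, for their role in the pathway, from the 23284 gene symbols of the series. The choice was made with earlier results of these data known. They comprise 7 genes of the class I complex, 14 genes of peptide processing and 12 genes of class II presentation. RNA-Seq was performed on HT-29, an established human colon cancer cell line, after 5 days of culture in 5-aza-deoxycytidine (5-Aza), a nucleoside analogue that inhibits DNA methyltransferases. The 3 groups were vehicle alone (dimethyl sulfoxide, 0 µM, the control), 5 µM 5-Aza and 10 µM 5-Aza, with 3 cultures each and paired-end libraries. All 9 cultures were of this one cell line, and no other line or untreated culture without vehicle entered the comparisons. The question addressed is whether class I, class II and peptide processing genes moved together or apart over the 3 doses.

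HLA class I molecules display peptides from inside the cell to CD8+ T cells and consist of a heavy chain paired with B2M, the invariant light chain. Their peptides are cut by the proteasome, carried into the endoplasmic reticulum by the TAP1 and TAP2 transporter, trimmed by ERAP1 and ERAP2, and loaded with the help of tapasin and chaperones. Class II molecules display peptides from endosomes to CD4+ T cells, are usually limited to professional antigen presenting cells, and in other cells are switched on by interferon gamma through the transactivator CIITA, as class I genes are by NLRC5.

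The deposited values are FPKM, fragment numbers divided by exon length and by library size, so that levels of different genes can be set beside each other. The FPKM values of a library summed to between 3.69e+09 and 5.91e+09, far above the usual range of such values, and they serve here as relative levels. The lowest sum was that of 10 µM replicate 1. Between 16373 and 16958 symbols were above 0 in the control libraries, against 18761 to 18957 at 5 µM and 17114 to 17592 at 10 µM. The relative normalizing terms for library size, estimated below, were 1.0 to 2.14, 2.29 to 2.57 and 1.27 to 2.01, respectively. The part of library size in the numbers of symbols above 0 was not tested. The epithelial identity of the cultures was checked with 11 colon epithelium markers, all of which were above 0 in all 9 libraries. Their summed FPKM was 90264200 to 108558000 in the control, 37692000 to 42350500 at 5 µM and 29613800 to 52075100 at 10 µM, with the keratins KRT8 and KRT18 as the largest terms. At 5 µM 2 of these markers were called up (CDX1 and CEACAM5) and 3 down (KRT8, KRT18 and KRT19), against 14.1% and 2.17% of all genes tested. The median log2 fold change of the 11 markers was -0.47. CEACAM5 was at 177026 to 216821 FPKM in the control and at 519966 to 626365 FPKM at 5 µM. KRT8 was at 35211200 to 42003400 and at 11913700 to 13094800 FPKM. At 10 µM vs. 0 µM 0 were called up and 3 down (KRT19, CDX2 and KRT20), against 4.07% and 3.4% of all genes tested. In bulk RNA, fewer cells of a type and less RNA per cell cannot be told apart. Some HLA symbols stand on many haplotype entries in the files, up to 8 per gene for 19 of the 33 genes, but no gene had more than 1 entry above 0.

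A gene was called when its p from limma, adjusted after Benjamini-Hochberg over all genes tested, was 0.05 or less and its log2 fold change lay above 1 or below -1. Fold changes are differences of log2(FPKM + 1). At 5 µM vs. 0 µM, 30 of the 33 genes were tested, of which 11 were called up and 0 down by limma. At an unadjusted p under 0.05, 23 were higher and 1 was lower. The share of all genes at this unadjusted p was not counted, here or for the other comparisons and lists below. As a different measure, 57.1% of all genes tested had a positive log2 fold change. Over all 20051 genes tested, 14.1% were called up and 2.17% down. The 11 genes were HLA-B, HLA-C, HLA-F, HLA-G and NLRC5 of class I, PSMB8, PSMB9 and TAP1 of peptide processing, and HLA-DPB1, HLA-DOB and CD74 of class II. HLA-DPB1, counted here, was listed at 0 in the control and passed the filter on low values through the 5 µM group only. With a filter of a largest FPKM of at least 1000 the count was 10. The median log2 fold change was 1.87 over the 7 class I genes and 0.47 over the 14 peptide processing genes, against -0.04 over the 15448 genes above 0 in all 6 libraries. The class II members are described one by one, because several of them passed the filter on low values in 1 group only.

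**Figure D1:**
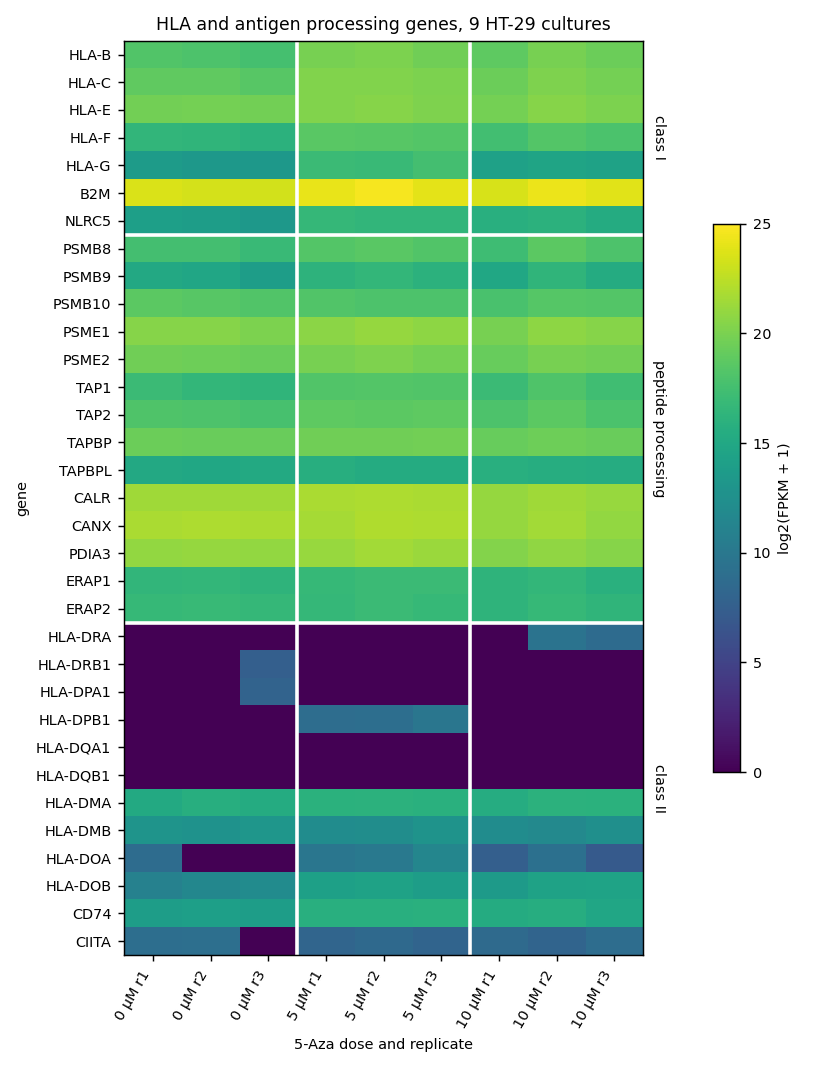
Expression of the 33 genes (rows) in the 9 HT-29 cultures (columns, by 5-Aza dose and replicate) as log2(FPKM + 1) in colour, with white lines between doses and between classes. Class I and peptide processing genes were above 0 in every culture, whereas the 6 class II chain genes at the top of the class II block were listed at 0 in nearly all.

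The class I heavy chain genes lie in the HLA region of chromosome 6. The 20 of the 33 genes on this chromosome span positions 29690552 to 33282061 of GRCh37, the build to which the authors aligned. HLA-F (chr6:29690552-29706305, plus strand) and HLA-G (chr6:29794744-29798902, plus strand) are the members nearest to one end, and HLA-B (chr6:31321649-31334844, minus strand) lies farther along. The 250 bases before their transcription starts, from RefSeq on GRCh38.p14, are shown for these 3 genes because all of them were called at 5 µM while the sizes of their changes differed. Where a gene had several starts, here HLA-G and below TAP1, the start with the most CpG dinucleotides around it was used. The regions are chr6:31357180-31357429, minus strand for HLA-B, chr6:29723184-29723433, plus strand for HLA-F, and chr6:29827575-29827824, plus strand for HLA-G. Capitals mark the Y box core (CCAAT, bound by NF-Y), the X2 core (TGACG, bound by CREB family factors) and the interferon-stimulated response element (ISRE), each on either strand.
HLA-B: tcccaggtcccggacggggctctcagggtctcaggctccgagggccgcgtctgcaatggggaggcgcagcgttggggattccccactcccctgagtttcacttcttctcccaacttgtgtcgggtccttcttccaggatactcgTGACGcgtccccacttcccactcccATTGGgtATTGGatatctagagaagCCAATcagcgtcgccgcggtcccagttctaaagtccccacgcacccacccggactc
HLA-F: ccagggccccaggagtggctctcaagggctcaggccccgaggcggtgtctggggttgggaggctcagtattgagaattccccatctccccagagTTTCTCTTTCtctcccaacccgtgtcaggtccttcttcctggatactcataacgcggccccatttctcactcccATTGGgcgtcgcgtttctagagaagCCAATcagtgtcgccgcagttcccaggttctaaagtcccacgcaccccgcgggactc
HLA-G: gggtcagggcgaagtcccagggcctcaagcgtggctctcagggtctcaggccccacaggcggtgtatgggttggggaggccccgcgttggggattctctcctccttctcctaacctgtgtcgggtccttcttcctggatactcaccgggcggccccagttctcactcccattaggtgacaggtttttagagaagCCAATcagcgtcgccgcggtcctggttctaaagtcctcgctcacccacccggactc

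The HLA-G stretch held 1 Y box and neither of the other motifs, that of HLA-F held 1 ISRE and 2 Y boxes, and that of HLA-B held 3 Y boxes and 1 X2 core. They contained 14, 13 and 17 CpG dinucleotides, respectively. These matches describe the letters in the window and not factor binding.

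HLA-B and HLA-C, the classical heavy chains, rose together at 5 µM. HLA-B was at 304132, 267865 and 199084 FPKM in the 3 control cultures and at 970287, 1073240 and 763092 FPKM at 5 µM. The groups did not overlap, and the log2 fold change was 1.87 (SE 0.19, limma adjusted p = 0.000867). HLA-C was at 491847, 479519 and 372706 FPKM in the control and at 1235780, 1258450 and 1098720 FPKM at 5 µM. Every 5 µM culture was again above every control culture, with a log2 fold change of 1.43 (SE 0.12, limma adjusted p = 0.000545).

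The non-classical heavy chains differed widely in the size of their change. HLA-G, a heavy chain known from the placenta and as a ligand of inhibitory leukocyte receptors, had the largest fold change of the class I genes. It was at 13790, 10573 and 10612 FPKM in the control and at 138505, 125903 and 193121 FPKM at 5 µM, a mean of 152510 ± 35730 (SD, n = 3) and 13.1 times the control mean. Its log2 fold change was 3.70 (SE 0.20, limma adjusted p = 0.000175), and between 25.9% and 27.8% of the symbols above 0 lay below it in the control libraries, against 66.2% to 75.6% at 5 µM. HLA-F, another non-classical heavy chain, was at 87137, 84775 and 66717 FPKM in the control and at 391221, 381596 and 317884 FPKM at 5 µM. It rose by 2.20 on the log2 scale (SE 0.13, limma adjusted p = 0.00022). HLA-E, the ligand of the NKG2A receptor of natural killer cells, started from the highest level of the 5 heavy chains. Its control cultures lay between 813905 and 926691 FPKM and its 5 µM cultures between 1191530 and 1437530 FPKM, without overlap. The log2 fold change of 0.58 passed the adjusted p (0.00463, limma) but not the 2-fold limit. At 5 µM HLA-G still had the lowest FPKM of the 5 heavy chains. The heavy chain genes are close relatives, and how the authors' software shared fragments that match several of them is not given in the sources used here, so the split between single heavy chains is uncertain. The summed FPKM of the 5 heavy chains, which depends less on that split, was 1662410 ± 172832 (SD, n = 3) in the control and 3944220 ± 358540 at 5 µM, with ranges of 1463020 to 1769420 and 3564350 to 4276720. HLA-F also overlaps an antisense gene, HLA-F-AS1, and a strand-specific count is not stated.

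B2M was by far the most abundant of the 33 genes. It was at 12201800, 11138000 and 10382300 FPKM in the control and at 18422800, 25694000 and 16317400 FPKM at 5 µM. The log2 fold change of 0.82 had a limma adjusted p of 0.0271 and stayed under 2-fold. NLRC5, the class I transactivator (GRCh37 chr16:57023397-57117443, plus strand), was at 18264, 15895 and 10088 FPKM in the control and at 102061, 89563 and 92908 FPKM at 5 µM. All 3 treated cultures were far above the control cultures, and the mean at 5 µM was 6.43 times the control mean. Its log2 fold change of 2.73 (SE 0.23, limma adjusted p = 0.000475) was above that of each class I chain gene except HLA-G. No promoter window of NLRC5 or HLA-E was in the table used here.

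**Figure D2:**
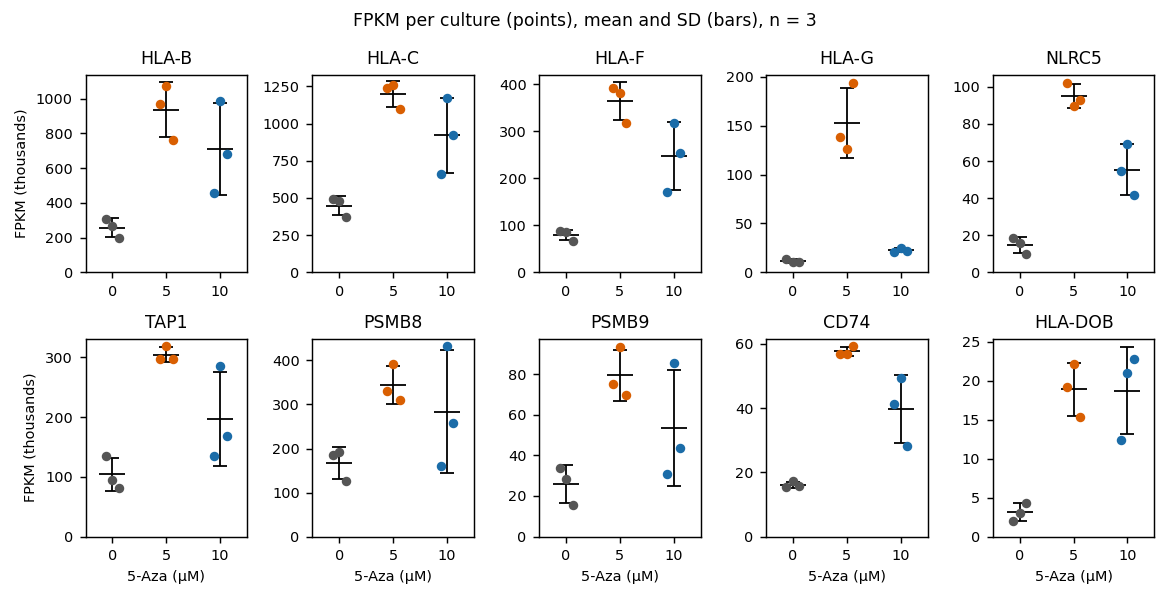
FPKM (axes in units of 1000 FPKM, starting at 0) of the 10 called genes that were above 0 in every culture, by 5-Aza dose, with points for cultures and bars for the mean and SD (n = 3). In each panel the 5 µM cultures lie above all control cultures, and at 10 µM HLA-G sits between 20872 and 24674 FPKM while HLA-DOB remains between 12426 and 22815 FPKM.

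Among the 14 peptide processing genes, 3 were called up at 5 µM, namely TAP1, PSMB9 and PSMB8, against 14.1% of all genes tested. PSMB8 and PSMB9 encode catalytic subunits of the immunoproteasome, the form of the proteasome induced by interferon, and TAP1 is a chain of the peptide transporter. TAP1 was at 135442, 94820 and 81809 FPKM in the control and at 297692, 319179 and 296722 FPKM at 5 µM, a log2 fold change of 1.58 (SE 0.18, limma adjusted p = 0.00121). PSMB9 was at 33801, 28437 and 15402 FPKM in the control and at 75069, 93520 and 69580 FPKM at 5 µM, a log2 fold change of 1.68 (SE 0.30, limma adjusted p = 0.00645). PSMB8 was at 184703, 192911 and 125908 FPKM in the control and at 331264, 391470 and 310176 FPKM at 5 µM, and its log2 fold change of 1.05 (SE 0.18, limma adjusted p = 0.00552) was close to the limit. The 5 µM cultures were above the control cultures for all 3 genes. PSMB8 was not called without control replicate 3 or without 5 µM replicate 2, where its lowest log2 fold change was 0.86.

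These 3 genes adjoin each other on chromosome 6. In the GRCh37 annotation PSMB9 (32811913 to 32827628, plus strand) overlaps both TAP1 (32812986 to 32821593, minus strand) and PSMB8 (32808494 to 32812456, minus strand), so that without strand their fragments cannot be fully told apart where they overlap. TAP1 and PSMB9 are transcribed in opposite directions from one short interval, and the 250 bases before their starts are shown because both genes were called and the 2 stretches overlap. On GRCh38.p14 the RefSeq stretches are chr6:32853705-32853954, minus strand for TAP1 and chr6:32853942-32854191, plus strand for PSMB9. Capitals again mark ISRE, Y box core and X2 core on either strand.
TAP1: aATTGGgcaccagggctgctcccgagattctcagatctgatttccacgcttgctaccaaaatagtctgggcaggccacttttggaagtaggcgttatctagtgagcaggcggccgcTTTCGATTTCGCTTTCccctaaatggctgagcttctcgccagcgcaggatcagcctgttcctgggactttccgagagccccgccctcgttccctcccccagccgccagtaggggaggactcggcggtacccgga
PSMB9: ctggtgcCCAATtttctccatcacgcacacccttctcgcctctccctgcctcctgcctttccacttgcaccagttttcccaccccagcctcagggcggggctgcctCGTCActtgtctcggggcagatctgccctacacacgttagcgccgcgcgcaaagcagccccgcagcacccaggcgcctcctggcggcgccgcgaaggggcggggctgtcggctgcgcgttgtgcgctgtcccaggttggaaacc

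In TAP1 the longest run of capitals consists of 2 ISRE matches that overlap each other. The stretch of PSMB9 held no ISRE, 1 Y box and 1 X2 core.

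The other 11 peptide processing genes were not called at 5 µM. TAP2, the partner chain of TAP1, came nearest, with 220026 to 290145 FPKM in the control, 438925 to 469928 FPKM at 5 µM and a log2 fold change of 0.81 (limma adjusted p = 0.00202). The proteasome activator subunits PSME1 and PSME2 were 0.50 and 0.48 higher on the log2 scale, with adjusted p of 0.0435 and 0.0254 by limma. CALR, a chaperone of the loading complex, was 0.45 higher (limma adjusted p = 0.00624), TAPBP, which encodes tapasin, 0.26 higher (0.0169) and ERAP1 0.49 higher (0.0208). PSMB10, the remaining catalytic subunit of the immunoproteasome, had a log2 fold change of -0.37 (limma adjusted p = 0.0702), with 299140 to 412686 FPKM in the control and 257560 to 304330 FPKM at 5 µM. It was the only one of the 14 genes with a negative log2 fold change. TAPBPL and PDIA3 differed by 0.40 and 0.32 and the chaperone CANX and the peptidase ERAP2 by 0.03 and 0.02, all with limma adjusted p above the threshold. For comparison, the constitutive proteasome was examined with a list of 16 genes of its subunits and activators. Of these genes 0 were called by limma in either direction in any of the 3 comparisons, against 14.1% of all genes called up and 2.17% down at 5 µM vs. 0 µM. The list had a median log2 fold change of -0.03 at 5 µM vs. 0 µM, -0.3 at 10 µM vs. 5 µM and -0.39 at 10 µM vs. 0 µM. Medians over the genes above 0 in all 6 libraries were -0.04, -0.24 and -0.23. At an unadjusted p under 0.05, 1 was higher and 3 were lower at 5 µM vs. 0 µM, 0 and 1 at 10 µM vs. 5 µM, and 0 and 3 at 10 µM vs. 0 µM.

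**Figure D3:**
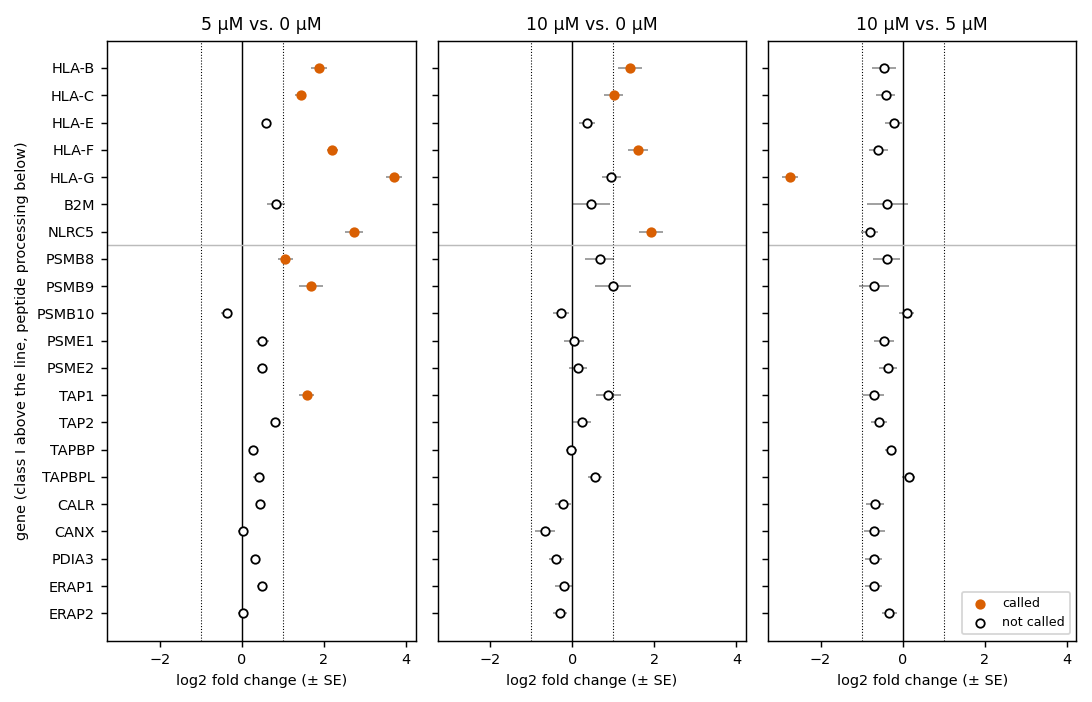
Log2 fold changes (points) with their SE (bars) from limma for the 7 class I genes and the 14 peptide processing genes in the 3 comparisons, with filled points for called genes and dotted lines at the 2-fold limits. At 5 µM vs. 0 µM 8 of the 21 genes were called up, at 10 µM vs. 0 µM 4, and at 10 µM vs. 5 µM HLA-G alone was called down. Over all genes tested, 14.1% were called up at 5 µM vs. 0 µM, 4.07% up at 10 µM vs. 0 µM and 4.82% down at 10 µM vs. 5 µM.

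Of the 12 class II genes, the 6 that encode the chains of the HLA-DR, HLA-DP and HLA-DQ molecules were close to or at 0 throughout. HLA-DQA1 and HLA-DQB1 were listed at 0 in all 9 libraries. HLA-DRA was listed at 0 in the control and at 5 µM and at 0, 710 and 419 FPKM at 10 µM. HLA-DRB1 and HLA-DPA1 were each above 0 in control replicate 3 only, at 183 and 243 FPKM. HLA-DPB1, the HLA-DP beta chain, was listed at 0 in all control and all 10 µM libraries and at 495, 521 and 925 FPKM at 5 µM. It was called up at 5 µM (limma adjusted p = 0.00101), and no fold is given against a group listed at 0. With a pseudocount of 1000 its log2 fold change was 0.71 and the call was lost. After multiplication by the relative normalizing term of each library, estimated from 12 microRNA genes of 110 nucleotides whose 46 values above 0 were all whole multiples of 1 step per library, the 3 values stood as 1, 1 and 2 whole units, which may be 1 fragment each. Counting error at such low numbers is not part of limma's test. The step of a library was itself its smallest microRNA value, so that value was whole by construction. The tolerance was 0.01 of the multiple, which is loose for large multiples. The summed FPKM of the 6 chain genes was 142 ± 246 (SD, n = 3) in control cultures and 647 ± 241 and 376 ± 357 in those at 5 and 10 µM, against 1662410 for the class I heavy chains in the control.

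CIITA, the class II transactivator, stayed low at each dose. It was at 515, 568 and 0 FPKM in the control, at 285, 375 and 267 FPKM at 5 µM and at 405, 256 and 504 FPKM at 10 µM. In whole units these values were 3, 5 and 0, then 4, 5 and 4, and then 3, 3 and 5, so that a difference between doses was not detectable at this depth.

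The class II accessory genes were expressed at higher levels, and CD74 and HLA-DOB rose. CD74 encodes the invariant chain that occupies the class II groove until peptide loading and that also serves as a receptor for the cytokine MIF. It was at 15340, 17182 and 15730 FPKM in the control and at 56807, 56736 and 59378 FPKM at 5 µM, 3.58 times the control mean. Its log2 fold change was 1.84 (SE 0.10, limma adjusted p = 0.000184). HLA-DOB, the beta chain of the HLA-DO molecule that restrains peptide exchange by HLA-DM, was at 1974, 3051 and 4314 FPKM in the control and at 19148, 22166 and 15342 FPKM at 5 µM. All treated cultures lay far above the control cultures, at 6.07 times the control mean, with a log2 fold change of 2.66 (SE 0.34, limma adjusted p = 0.00173). In whole units HLA-DOB rested on 3, 7 and 14 in the control and on 70, 77 and 60 at 5 µM. Whole units grow with the normalizing term of their library. This term was 1.0, 1.51 and 2.14 in the control and 2.41, 2.29 and 2.57 at 5 µM. The units therefore show the numbers behind a value, and the size of a change is that in FPKM. On GRCh37 HLA-DOB (chr6:32780540-32788243, minus strand) lies 1366 bp from TAP2 on the same strand. HLA-DOA, the partner chain of HLA-DOB, was at 466, 0 and 0 FPKM in the control and at 872, 1122 and 2898 FPKM at 5 µM, or 2, 0 and 0 against 9, 11 and 32 whole units. The groups did not overlap, but the limma adjusted p was 0.0568, and with a pseudocount of 1000 HLA-DOA was called (0.023). The subunits of HLA-DM, which exchanges the peptides of class II molecules, were not called. HLA-DMA was at 36921 to 52240 FPKM in the control and at 58368 to 69382 FPKM at 5 µM (log2 fold change 0.55, limma adjusted p = 0.0294), and HLA-DMB at 6825 to 9050 and at 4552 to 7259 FPKM (log2 fold change -0.53, limma adjusted p = 0.166).

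The promoters of HLA-DOB and CD74 are shown because these genes rose at both doses while the class II chain genes remained near 0. The 250 bases before the RefSeq starts are chr6:32817003-32817252, minus strand for HLA-DOB and chr5:150412911-150413160, minus strand for CD74 on GRCh38.p14, with Y box cores in capitals.
HLA-DOB: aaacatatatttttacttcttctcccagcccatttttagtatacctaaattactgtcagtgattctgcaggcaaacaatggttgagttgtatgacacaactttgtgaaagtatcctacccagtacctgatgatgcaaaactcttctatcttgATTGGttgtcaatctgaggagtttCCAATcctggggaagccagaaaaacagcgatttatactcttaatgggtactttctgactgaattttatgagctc
CD74: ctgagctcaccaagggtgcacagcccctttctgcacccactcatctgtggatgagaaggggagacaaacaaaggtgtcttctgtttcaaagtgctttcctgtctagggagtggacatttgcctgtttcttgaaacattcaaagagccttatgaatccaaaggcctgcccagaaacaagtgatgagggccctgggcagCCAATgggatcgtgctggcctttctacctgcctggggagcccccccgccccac

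HLA-DOB held 2 Y boxes and CD74 held 1, with no ISRE or X2 core in either stretch. They contained only 1 and 2 CpG dinucleotides, fewer than the 3 class I stretches.

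**Figure D4:**
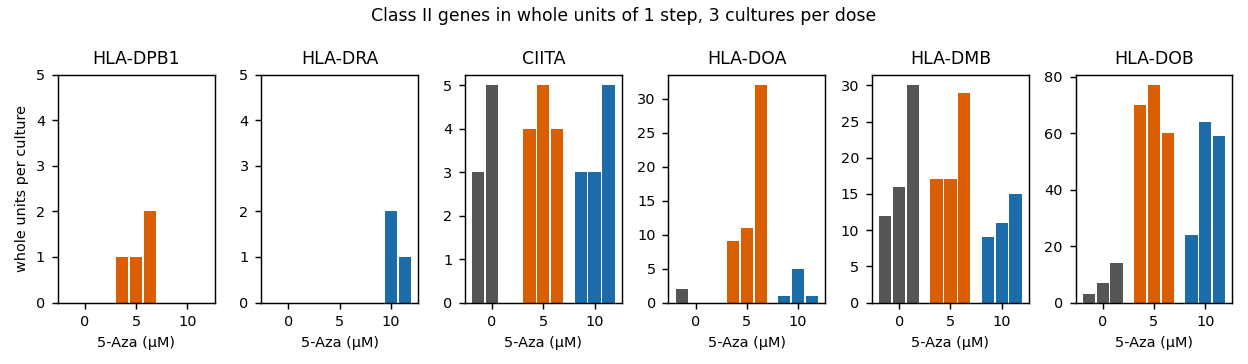
Whole units (value times the relative normalizing term of its library, in steps) of 6 class II genes in each culture, by 5-Aza dose, with 1 bar per culture, no bar at 0 and axes starting at 0 that differ between panels. HLA-DPB1 and HLA-DRA rest on 1 or 2 units per culture, CIITA on at most 5, and HLA-DOB on 3 to 14 units in the control and 60 to 77 at 5 µM. Units are not corrected for the normalizing term, which was larger at 5 µM than in the control, so their heights do not give fold changes.

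Markers of cells that normally carry class II were examined beside these results. Of 12 leukocyte markers, 4 were called up at 5 µM (CD3E, ITGAM, ITGAX and CD68) and 0 down, against 14.1% of all genes tested called up. Of 6 fibroblast markers 4 were called up at 5 µM, and of 4 endothelial markers 3, with 0 down in either list. CD3E and the endothelial marker CDH5, both counted here, were listed at 0 in the control. They passed the filter on low values through the 5 µM group only. PTPRC, the pan-leukocyte marker, was at 0, 0 and 154 FPKM in the control, at 137, 326 and 984 FPKM at 5 µM and at 0, 82 and 290 FPKM at 10 µM. The B cell marker MS4A1 was above 0 in 1 control library only, at 451 FPKM. The summed FPKM of the 12 markers, most of it LYZ, was 8692280 to 8944930 in the control, 4586120 to 5448270 at 5 µM and 4739620 to 6889820 at 10 µM. The sums of 6 fibroblast markers and of 4 endothelial markers were higher at 5 µM (82214 to 88739 and 9843 to 12404 FPKM) than in the control (22549 to 32355 and 1901 to 5031 FPKM). The part of such markers in the class II values was not tested.

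At 10 µM vs. 0 µM, 6 of the 33 genes were called up and 0 down, by limma, against 4.07% of 18928 genes tested called up and 3.4% called down. At an unadjusted p under 0.05, 9 were higher and 1 was lower, and 42.1% of all genes tested had a positive log2 fold change. Over all genes the split of 771 up and 644 down moved to 1125 up and 284 down after median-of-ratios scaling and to 1363 up and 164 down with equal FPKM totals. The 6 genes called up were HLA-B, HLA-C, HLA-F and NLRC5 of class I and HLA-DOB and CD74 of class II. Of the 14 peptide processing genes 0 were called (3 at an unadjusted p under 0.05, of which 2 were higher). This count of 0 changed with the scaling of the libraries, as given below for TAP1, PSMB9 and PSMB8. The control cultures are the same as in the first comparison, so that the 2 comparisons are not independent. The median log2 fold change was 1.01 over the class I genes and 0.01 over the peptide processing genes, against -0.23 over the 15300 genes above 0 in all 6 libraries. HLA-B was at 457959, 984367 and 683160 FPKM at 10 µM (log2 fold change 1.42, SE 0.29, limma adjusted p = 0.0241). HLA-C was at 662455, 1171600 and 925857 FPKM (1.01, SE 0.23, limma adjusted p = 0.0313), just past the limit. HLA-F was at 171593, 316613 and 253993 FPKM (1.60, SE 0.24, limma adjusted p = 0.00988). In these 3 genes replicate 1 was lowest and replicate 2 highest, and all 3 cultures were above the control cultures. NLRC5 was at 54810, 69369 and 41729 FPKM (1.92, SE 0.29, limma adjusted p = 0.0111), HLA-DOB at 12426, 20969 and 22815 FPKM (2.61, SE 0.42, limma adjusted p = 0.0123) and CD74 at 41342, 49213 and 28302 FPKM (1.27, SE 0.24, limma adjusted p = 0.0208). For these 6 genes the SD between the 10 µM cultures was larger than at 5 µM, and the calls depended on single cultures. The count was 3 without any 1 of the 3 control replicates, where HLA-B, HLA-C and CD74 were lost, and 2 without 10 µM replicate 3, where NLRC5 and CD74 were still called. NLRC5 was called in each of the 6 fits that left out 1 culture.

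HLA-G was at 20872, 24674 and 21623 FPKM at 10 µM, above all 3 control cultures, at 1.92 times the control mean. Its log2 fold change of 0.95 (SE 0.23, limma adjusted p = 0.0353) did not reach the 2-fold limit. After median-of-ratios scaling of the libraries it was 1.19 and past both thresholds, as was TAP1 at 1.12. With equal FPKM totals HLA-G (1.33), TAP1 (1.26), PSMB9 (1.36) and PSMB8 (1.04) were past both thresholds. Their limma adjusted p were then 0.00822, 0.0091, 0.0322 and 0.0297. HLA-E and B2M had log2 fold changes of 0.36 and 0.45 with limma adjusted p of 0.245 and 0.518. The called processing genes of the 5 µM comparison were at 135467, 285352 and 168294 FPKM for TAP1, at 30909, 85515 and 43487 FPKM for PSMB9 and at 159139, 434043 and 257656 FPKM for PSMB8. Their log2 fold changes against the control were 0.88, 0.99 and 0.66, with limma adjusted p of 0.0872, 0.15 and 0.219. The 10 µM cultures overlapped the control cultures for PSMB8 and PSMB9, and for TAP1 the lowest 10 µM culture (135467 FPKM) was almost equal to the highest control culture (135442 FPKM). CANX, at 1980300 to 3058400 FPKM against 3676530 to 3890030 FPKM in the control, had the lowest log2 fold change of the 14 processing genes, -0.67 (limma adjusted p = 0.0945).

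Between the treated groups, 10 µM vs. 5 µM, 0 of the 33 genes were called up and 2 down by limma, against 0.129% of 20085 genes tested called up and 4.82% called down. At an unadjusted p under 0.05, 0 were higher and 12 lower, without a count of all genes at that p. Most genes were lower in this comparison, as only 24.4% of all genes tested had a positive log2 fold change. HLA-G fell by 2.75 on the log2 scale (SE 0.19, limma adjusted p = 0.00197), and its highest 10 µM culture, at 24674 FPKM, lay below its lowest 5 µM culture, at 125903 FPKM. HLA-DPB1 was listed at 0 in all 3 libraries at 10 µM, against 1, 1 and 2 whole units at 5 µM, and it had passed the filter on low values through the 5 µM group only. The normalizing terms of the 10 µM libraries (1.27, 2.01 and 1.7) were smaller than those at 5 µM (2.41, 2.29 and 2.57), and a difference was not detectable at these numbers. Its call, which does not cover counting error, was lost without 5 µM replicate 3, leaving 1 gene, and without 10 µM replicate 2 the count was 5, with PSMB9, TAP1 and HLA-DOA added. With the replicate number as a block HLA-DPB1 was not called (limma adjusted p = 0.0595). The other heavy chains were lower at 10 µM than at 5 µM by less than 2-fold, with log2 fold changes of -0.46 for HLA-B, -0.42 for HLA-C, -0.59 for HLA-F and -0.22 for HLA-E, and limma adjusted p of 0.361, 0.289, 0.175 and 0.554. NLRC5 (-0.81, limma adjusted p = 0.0637), TAP1 (-0.71, 0.163) and CD74 (-0.58, 0.166) were lower to a similar degree, without a call. The median over all 16239 genes above 0 in these 6 libraries was itself -0.24. It was -0.46 over the class I genes and -0.52 over the peptide processing genes. HLA-DOB, at -0.04 (SE 0.29, limma adjusted p = 0.943), hardly differed in its means between 5 µM (18885 FPKM) and 10 µM (18737 FPKM), and the sign of its difference changed with the scaling. Whether HLA-G differed from the other heavy chains between the treated groups was not tested as such.

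The promoter windows of RefSeq, which run from 250 bases before to 50 bases after each start, were available for 28 of the 33 genes, and HLA-E, NLRC5, PDIA3, HLA-DRA and CIITA had none. An ISRE, searched as GAAA, any 2 bases and GAAA on both strands with overlapping matches counted, was found in a window of 11 of the 28 genes, against 4.38% of all 27305 genes with a window. They were 2 of 5 class I genes (HLA-F and B2M), 9 of 13 peptide processing genes and 0 of 10 class II genes. A Y box core was present in all 5 class I genes, in 5 of the 13 peptide processing genes and in 9 of the 10 class II genes, against 39.7% of all genes. An X2 core was present in 12 of the 28 genes, against 28.4% of all genes, and a gamma interferon activation site (TTCNNNGAA) in 3, against 9.38%. Of the called processing genes, TAP1 and PSMB8 had an ISRE in at least 1 window and PSMB9 had none.

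The number of CpG dinucleotides in 1 window per gene was set beside the change at 5 µM. Where a gene had several windows, the one with the most CpG was used. Methylation itself was not measured in these files. The chosen class I windows held 17 to 22 CpG with a median of 19, the peptide processing windows 3 to 38 with a median of 22, and the class II windows 1 to 27 with a median of 3. Other windows of HLA-G, not used, held 1 and 2 CpG. The genes with 17 CpG were HLA-G, HLA-F, PSMB8 and PSME2, with log2 fold changes of 3.70, 2.20, 1.05 and 0.48. HLA-DOB and CD74 rose with 2 and 3 CpG in their windows, and CANX, with 38, had a log2 fold change of 0.03.

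**Figure D5:**
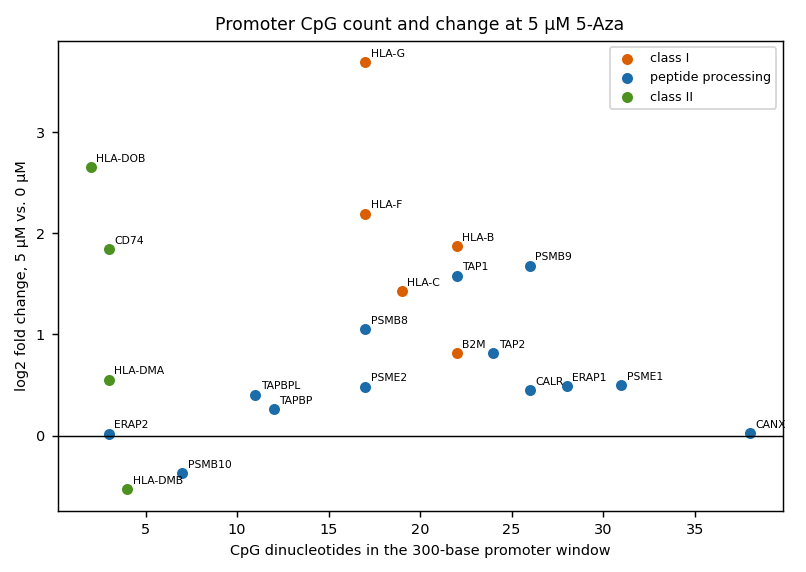
Number of CpG dinucleotides in the 300-base RefSeq promoter window (horizontal) and log2 fold change at 5 µM vs. 0 µM (vertical), 1 point per gene, coloured by class, for the genes with a window and not near 0 in the control. Where a gene had several windows, the one with the most CpG is plotted. HLA-G stands highest at 17 CpG, CANX lies near 0 at 38 CpG, and HLA-DOB and CD74 lie at the low CpG end.

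Other genes of the pathways were examined as lists beside the 33. Of 7 cytosolic peptidases tested, LAP3, an interferon-inducible aminopeptidase, was called up at 5 µM (1.02), a share near the 14.1% of all genes called up in this comparison. Of 12 lysosomal genes of class II peptide processing tested, 3 were called up at 5 µM and 0 down, against the same 14.1%, with a median of 0.08. They were the thiol reductase IFI30 (1.59, limma adjusted p = 0.000967), the cathepsin gene CTSL1 (1.55, 0.00178) and the cathepsin gene CTSF, which was listed at 0 in the control and at 3619 to 5186 FPKM at 5 µM. CTSF passed the filter on low values through the treated groups only, and its calls are counted here. CTSF was the only gene of these lists called at 10 µM vs. 0 µM, against 4.07% of all genes called up. At 10 µM vs. 5 µM 0 were called by limma, and 1 peptidase and 7 lysosomal genes were lower at an unadjusted p under 0.05. In that comparison only 24.4% of all genes tested had a positive log2 fold change.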

How the data were processed

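Libraries of 9 HT-29 cultures, 3 per dose, were grouped by the sample labels. Reads were quality filtered by the authors (FASTX-Toolkit) and aligned with TopHat to hg19. The deposited files hold the FPKM values per gene that the authors obtained with Cufflinks. The authors named an Ensembl human reference and default TopHat settings. Their annotation release, use of strand and normalizing term are not given in the sources used here, and raw counts were not used. An exact 0 can be a failed estimate, so such genes are called listed at 0. Read totals per library were not used here, and precision was judged from replicates and, for low genes, from whole units (value times library term, whole within 0.02).

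Values of repeated symbols were summed. log2(FPKM + 1) values of genes whose largest FPKM reached 10 in the groups compared were fitted with limma 3.58.1 in R 4.3.3 (lmFit and eBayes with trend), 3 against 3 cultures, without a replicate block. Adjusted p-values are Benjamini-Hochberg values over all genes tested. With 3 against 3, an exact permutation test of a single gene could not give a 2-sided p below 0.1. Other software was numpy 2.4.6, pandas 2.3.3 and matplotlib 3.10.9, and scripts were tested on simulated data. Alternatives were other pseudocounts (0.1 and 1000), other filters, no fold threshold, treat, 1 fit of all 9 samples, a replicate block, median-of-ratios scaling, equal FPKM totals, the largest entry of a symbol, and each replicate left out. All 33 genes are named, with values per culture for called genes and those at 0 in a whole group. Of the other lists, at most 4 called genes with the largest change at 5 µM are named. One list under this rule is not reported here. The members and lists were chosen with earlier results of these data known. Gene positions are from GENCODE on GRCh37, matched for all 33 genes. Promoters are from RefSeq (GRCh38.p14), and no position was converted between builds.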

Additional observations from a re-analysis of the deposited data

How the results depend on the processing

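At 5 µM vs. 0 µM the number of genes called up was 11, and it was 20 without a fold threshold, 7 with limma's treat and 10 to 12 with 1 replicate left out. At 10 µM vs. 5 µM the number called down was 2, and it was 1 with a pseudocount of 1000, 1 with a largest FPKM of at least 1000, 1 with the replicate block, and 1 to 5 with 1 replicate left out. At 10 µM vs. 0 µM the number called up was 6, and it was 0 with treat, 10 with equal FPKM totals, 8 after median-of-ratios scaling and 2 to 6 with 1 replicate left out. The causes of these differences were not tested beyond the construction of each alternative. The number called down against the control was 0 in every alternative. The HLA-DOB difference between 10 and 5 µM turned from -0.04 to 0.16 after median-of-ratios scaling and 0.048 with equal totals, and ran from -0.21 to 0.23 with 1 replicate left out. The summed control FPKM of the class I heavy chains was 1421250 with equal totals. Over all genes, the 2818 up and 436 down at 5 µM vs. 0 µM became 4263 and 3553 without a fold threshold and 1463 and 70 with treat, with 167 down under equal totals. The 26 up and 969 down at 10 µM vs. 5 µM became 11 and 407 with the block and 7 and 374 with treat, the number up being 64 without a fold threshold, 55 after median-of-ratios scaling and 42 with equal totals. The 771 up and 644 down at 10 µM vs. 0 µM became 145 and 16 with treat and 1363 and 164 with equal totals, with 1174 up in 1 fit of all samples, 1837 down without a fold threshold and 284 down after median-of-ratios scaling. With 1 replicate left out they ran from 12 to 64 up and 176 to 1873 down (10 µM vs. 5 µM) and from 337 to 819 up and 165 to 1500 down (10 µM vs. 0 µM). Same-numbered replicates of different doses had correlations of -0.07 to 0.09 in their deviations and other pairs -0.16 to 0.1, so the numbers are not shown to pair the cultures. The block otherwise changed no member's call. Depth limits HLA-DPB1, HLA-DRA, HLA-DRB1, HLA-DPA1, HLA-DOA and CIITA, which rest on few whole units in at least 1 group.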

Other observations

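The class I-like molecules and the stress ligands of NKG2D, an activating receptor of natural killer and T cells, were examined as a list of 14 genes, all of which were tested. At 5 µM vs. 0 µM 5 were called up and 1 down, against 14.1% and 2.17% of all genes tested, and at an unadjusted p under 0.05 8 were higher and 2 lower. The list had a median log2 fold change of 0.69, against 0.14 over all genes tested and -0.04 over those above 0 in all 6 libraries. CD1D, which presents lipids, was listed at 0 in the control and at 166 to 355 FPKM at 5 µM. It passed the filter on low values through the treated groups only, and its calls, counted here, do not cover counting error at such low levels. The ligand genes RAET1G and MICB rose by 1.95 and 1.59 on the log2 scale (limma adjusted p = 0.00372 and 0.00604), and RAET1L by 1.56 (limma adjusted p = 0.000647). RAET1G was at 3908 to 8221 FPKM in the control and at 20231 to 26282 FPKM at 5 µM, and RAET1L at 40041 to 47972 and at 115073 to 155117 FPKM. ULBP2, called up, and ULBP3, called down, are named outside the rule and after their values were seen. ULBP2 was at 92498 to 97850 FPKM in the control and at 194024 to 211119 FPKM at 5 µM, whereas ULBP3 fell from 93924 to 107498 FPKM to 37737 to 48623 FPKM. At 10 µM vs. 5 µM, RAET1L and ULBP2 were called down (log2 fold changes of -1.22 and -1.13, limma adjusted p = 0.0145 and 0.00787), and 0 of the 14 genes were called up, against 4.82% of all genes called down and 0.129% called up. At 10 µM vs. 0 µM CD1D was called up and ULBP3 down, against 4.07% and 3.4% of all genes.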
